A study of Arabidopsis thaliana with 12 samples.

Results

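LPA19, PSB27, CCB3 and the PsbP-domain protein AT1G76450 are 4 nuclear genes of Arabidopsis thaliana whose proteins act in, or are related to subunits of, the photosynthetic complexes of the chloroplast thylakoid. Each lay on a feature of the array that carries a single gene name in the platform annotation, and they are 4 of 692 such features among 3439 in all. They were picked from their names and from their behaviour between proline and water in these same samples, with no threshold. Their values in that contrast are therefore given as a description, with no test. RNA came from wild-type plants of the ecotype Wassilevskija on 12 arrays, 6 from plants treated with 100 mM proline for 3 h and 6 from plants given water. Proline is an amino acid that plants accumulate under drought and salt, and the treatment was designed, per the labels, to bring it to toxic levels in the cells. No time is stated in the titles of the water samples, so an effect of time on these plants and an effect of proline cannot be told apart.

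Photosystem II, the complex that splits water, is built in steps from separate subunits, and it is taken apart and rebuilt when light damages its reaction-centre protein D1. Helper proteins that are absent from the finished complex guide these steps, among them the small lumenal Psb27 proteins. The cytochrome b6f complex, which carries electrons from photosystem II towards photosystem I, needs CCB proteins to attach one of its haems covalently to cytochrome b6. PsbP itself is an outer subunit of the oxygen-evolving complex, and plants hold a family of further lumenal proteins with a PsbP domain.

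The measure is the relative intensity of a feature as deposited, on a linear scale that ends at 100. The sources used here do not give the background subtraction or the scaling of the arrays. Changes are differences of log2 intensity, proline minus water, after quantile normalization, which gives every array the same distribution of values. None of the 4 features was listed at 0 on any array. The plant part is not given, and in whole tissue fewer cells of a type and less RNA per cell cannot be told apart. Of 19 genes fixed as markers of green tissue only PRK, the phosphoribulokinase of the Calvin cycle, lay on a tested single-gene feature. Its intensity averaged 1.68 ± 0.229 in proline samples and 1.93 ± 0.409 in water samples (SD, n = 6 each), with a log2 change of -0.43 (limma, adjusted p = 0.0184) that was -0.19 (limma, adjusted p = 0.322) as deposited. None of 15 root markers had a single-gene feature, so the share of green and root tissue was not tested.

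LPA19, a homologue of Psb27 that assists the maturation of newly made D1, was lower in every proline sample than in any water sample. Its intensity had a lowest value of 0.0848, a median of 0.109 and a highest of 0.137 after proline, against 0.198, 0.211 and 0.250 in water. The gap between the groups was wider than the range within water. On the normalized log2 scale the SD was 0.33 over the proline samples and 0.13 over the water samples. Groups that do not overlap, with proline the lower, were found for 14.8% of the 2674 features that had no missing value, so this separation is shared by many features. The mean log2 change of LPA19 was -1.07 ± 0.25 (SD over the 6 same-numbered changes). The proline over water ratios of deposited intensity for numbers 1 to 6 were 0.549, 0.648, 0.553, 0.428, 0.436 and 0.443. All 6 same-numbered comparisons had the lower value after proline, within a narrow band. In replicates 1 and 2, 3 and 4, and 5 and 6 the mean log2 changes were -0.81, -1.16 and -1.24. Of the 2674 features, 61.6% had changes that differed as much or more between the successive pairs. The spread of the 6 same-numbered changes was smaller for LPA19 than for most features, at percentile 29.5 of the 2861 tested. Of the 4 genes it was the one with the least spread of changes, although its change was of moderate size, ranking 37 of the 576 tested named genes from the lowest change.

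**Figure D1:**
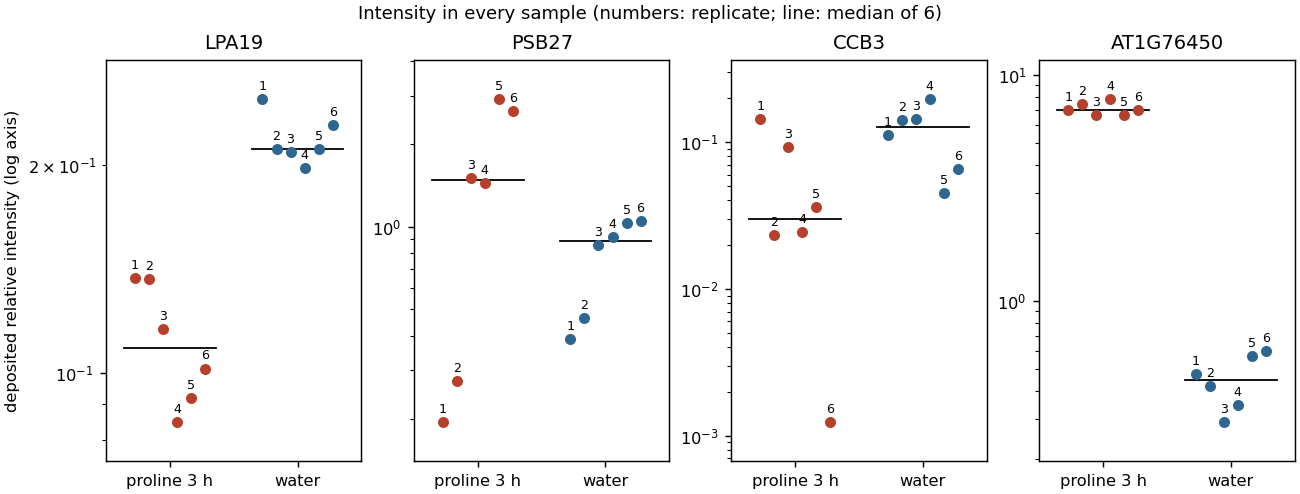
Deposited relative intensity (log axis, a different range in each panel) of LPA19, PSB27, CCB3 and AT1G76450 in the 6 proline samples (red, left) and the 6 water samples (blue, right). Each point is a sample with its replicate number and the line is the median of 6. LPA19 and AT1G76450 separate the groups, whereas PSB27 and CCB3 overlap.

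PSB27, the other Psb27 protein on the array, is known for its part in the repair of photosystem II after light damage. Its intensity overlapped between the groups, with a lowest value of 0.195, a median of 1.48 and a highest of 2.92 after proline, against 0.389, 0.888 and 1.05 in water. The proline samples spanned a 15.0-fold range and bracketed all the water samples, which spanned 2.68-fold. The mean log2 change was 0.17 ± 1.04 (SD over the 6 same-numbered changes), so the spread between numbers was several times the mean. The ratio of the group means of deposited intensity, in which high values weigh most, gave a log2 change of 0.93.

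The values of PSB27 divided by replicate number in both groups. Replicates 1 and 2 averaged 0.235 after proline and 0.428 in water, a ratio of 0.548. Replicates 3 and 4 averaged 1.48 after proline and 0.888 in water, a ratio of 1.66. Replicates 5 and 6 averaged 2.78 after proline and 1.04 in water, a ratio of 2.68. PSB27 was thus lower after proline in replicates 1 and 2 and higher in the other 4, and replicates 1 and 2 were also the lowest of their own group in both treatments. The ratios for numbers 1 to 6 were 0.4997, 0.589, 1.76, 1.57, 2.83 and 2.53, and members of a successive pair resembled each other closely. Within a pair the normalized log2 values of one group differed by at most 0.43 after proline and 0.27 in water, while the pair means ranged over 3.46 after proline and 1.20 in water. Without replicates 1 and 2 of both groups the log2 change was 0.81, and without replicates 5 and 6 it was -0.33. It was also below 0 without proline replicate 5 (-0.13), proline replicate 6 (-0.10) or water replicate 1 (-0.01), and it was 0.62 without proline replicate 1 and 0.54 without proline replicate 2. The direction of PSB27 therefore depended on which samples were counted. The labels do not say what successive numbers share, and the part of handling or plant batch in this split was not tested. Among these 2674 features, 61 (2.28%) had changes that differed as much or more between the successive pairs, where PSB27 ranged over 2.27 and the median feature over 0.53.

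**Figure D2:**
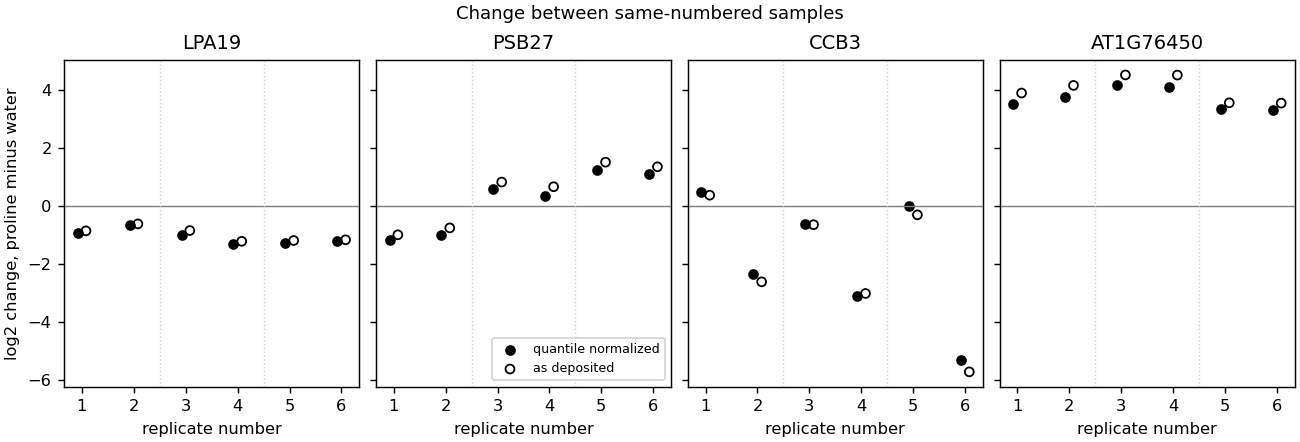
Log2 change, proline minus water, between samples with the same replicate number, for quantile normalized values (filled) and deposited values (open). Dotted lines divide successive pairs of numbers. PSB27 is below 0 for numbers 1 and 2 and above 0 for the other 4, and CCB3 is lowest for numbers 2, 4 and 6.

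CCB3, one of the CCB proteins for haem attachment to cytochrome b6, had the lowest mean change of the 4 and the widest spread. Its intensity had a lowest value of 0.00124, a median of 0.0301 and a highest of 0.143 after proline, against 0.0448, 0.127 and 0.197 in water. Proline replicates 1 and 3 lay inside the range of the water samples, and the other 4 proline samples lay below it. The mean log2 change was -1.83 ± 2.19 (SD over the 6 same-numbered changes), and the SD was larger than the mean in size.

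The proline over water ratios of CCB3 for numbers 1 to 6 were 1.29, 0.163, 0.636, 0.123, 0.804 and 0.0190. The value after proline was lower in 5 of the 6 comparisons and higher for number 1. After proline, replicates 2, 4 and 6 had intensities of 0.0231, 0.0242 and 0.00124, against 0.143, 0.0920 and 0.0360 in replicates 1, 3 and 5. In water, replicates 2, 4 and 6 had 0.142, 0.197 and 0.0653, against 0.111, 0.145 and 0.0448 in replicates 1, 3 and 5. Each even number was thus the lower of its successive pair after proline and the higher in water. The size of the change rested largely on proline replicate 6, without which the log2 change was -0.96. The intensity of CCB3 was close to the lower end of the scale there, with 7 of the 2939 features above 0 on that array lower still. The ratio of the group means of deposited intensity, in which low values weigh little, gave a log2 change of -1.14. Within replicates 1 and 2, 3 and 4, and 5 and 6 the mean log2 changes were -0.94, -1.88 and -2.66. Although the size differed, all 3 pair means were below 0, and each rested mainly on the even number of its pair. The normalized log2 changes were -2.35, -3.12 and -5.30 for numbers 2, 4 and 6. They were 0.46, -0.65 and -0.008 for numbers 1, 3 and 5. In water, replicates 5 and 6 were the lowest of their group, whereas proline replicate 5 lay above proline replicates 2 and 4.

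AT1G76450, the protein with a PsbP domain, had by far the largest change of the 4. Its intensity had a lowest value of 6.61, a median of 6.98 and a highest of 7.82 after proline, against 0.291, 0.448 and 0.600 in water. Every proline sample was above every water sample by a wide margin, and proline was higher without overlap in 12.8% of the 2674 features. The mean log2 change was 3.69 ± 0.37 (SD over the 6 same-numbered changes), the fifth highest of 2861 tested features. The ratios of deposited intensity for numbers 1 to 6 were 14.7, 17.7, 22.7, 22.6, 11.7 and 11.6, and numbers 3 and 4, and 5 and 6, gave nearly equal values while 1 and 2 lay further apart.

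The spread of AT1G76450 lay on the water side. The coefficient of variation of its intensity was 6.66% after proline and 27.1% in water. On the normalized log2 scale the SD over proline samples was 0.06, at percentile 0.909 of all tested features, and 0.36 over water samples, at percentile 68.1. The differences between the ratios of the pairs thus followed the water values, which averaged 0.448, 0.319 and 0.585 in replicates 1 and 2, 3 and 4, and 5 and 6. The proline values of the same pairs averaged 7.22, 7.21 and 6.80.

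**Figure D3:**
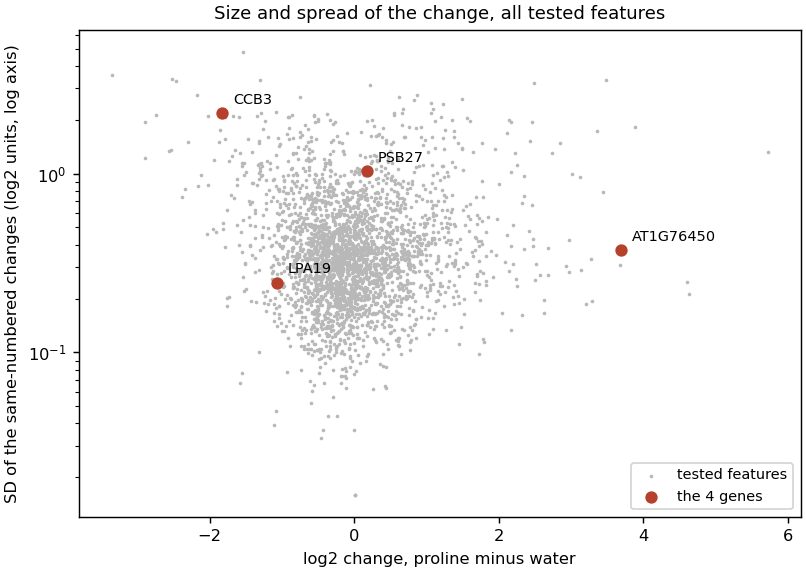
Mean log2 change, proline minus water (x axis), and SD of the 6 same-numbered changes in log2 units (y axis, log axis) for all 2861 tested features (grey) and the 4 genes (red). AT1G76450 lies far to the right at 3.69 with an SD of 0.37, and CCB3 lies near the top with an SD of 2.19.

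The spread of the same-numbered changes set PSB27 and CCB3 apart from LPA19 and AT1G76450. The median SD over all tested features was 0.35, which lies between the 0.25 of LPA19 and the 0.37 of AT1G76450. PSB27 was at percentile 92.3 of this spread and CCB3 at percentile 99.3.

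Differences between the genes were also taken within each array from the deposited values, where no scaling factor of an array can move them. The log2 change of LPA19 minus that of PSB27 averaged -1.42 ± 1.26 (SD over 6 numbers). The related pair LPA19 and PSB27 did not keep one order, since LPA19 had the lower change in 4 of the 6 numbers and the slightly higher one in replicates 1 and 2. The difference ranged from -2.70 to 0.14. Relative to AT1G76450 the difference was -5.01 ± 0.43 for LPA19, -3.59 ± 1.25 for PSB27 and -6.01 ± 2.23 for CCB3, with the same sign in all 6 numbers for each. LPA19 and CCB3 were not separated in this way, with a difference of 1.004 ± 2.20 and each the lower in 3 of 6 numbers.

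Other genes of thylakoid assembly were sparse on single-gene features. Of 78 genes listed for assembly of photosystem II, cytochrome b6f, photosystem I and ATP synthase, for the PsbP and PsbQ families and for thylakoid protein targeting, 74 were others than the 4 described. Of these, 6 lay on a single-gene feature, 5 lay only on features shared with other genes, and 4 could be tested. After proline 1 rose and 3 fell (limma with Benjamini-Hochberg adjustment over all tested features), where 18.3% of all 2861 tested features were higher and 25.9% lower, 44.1% in all. The 4 had a median log2 change of -0.47, against -0.12 over all tested features. In the values as deposited the median of all tested features was 0.06, and 702 features were higher and 483 lower, against 523 and 740 after quantile normalization.

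AT1G22700, listed under photosystem I assembly, rose 1.56-fold (log2 0.64 ± 0.13 SE, adjusted p = 0.00180). Its intensity averaged 0.467 ± 0.0695 in proline samples and 0.246 ± 0.0323 in water samples (SD, n = 6 each, limma), without overlap. SECE1, a subunit of a Sec translocase of the chloroplast that moves proteins into or across the thylakoid membrane, fell by 0.90 on the log2 scale (SE 0.15, adjusted p = 4.45e-04). Its intensity averaged 0.170 ± 0.0404 in proline samples and 0.279 ± 0.0589 in water samples (SD, n = 6 each, limma), with some overlap. The limma adjusted p with successive pairs averaged was larger, 0.0286 for AT1G22700 and 0.0163 for SECE1. The intensities are as deposited, whereas the changes above are after quantile normalization. As deposited, the log2 change was 0.92 for AT1G22700 (limma, adjusted p = 8.90e-05) and -0.71 for SECE1 (limma, adjusted p = 0.00522).

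AT1G54500, listed under photosystem II assembly, fell by 0.41 on the log2 scale (limma, adjusted p = 0.00218), with intensities of 0.526 ± 0.0488 in proline samples and 0.540 ± 0.0323 in water samples. As deposited its log2 change was -0.04 (limma, adjusted p = 0.713), while it was -0.24 after median scaling (adjusted p = 0.0357) and -0.32 after cyclic loess (adjusted p = 0.00594). With successive pairs averaged, which leaves 3 units a group, its log2 change stayed at -0.41 and its adjusted p was 0.0836. AT3G61870, listed under cytochrome b6f assembly with CCB3, fell by 0.54 on the log2 scale (limma, adjusted p = 0.0415). Its intensity averaged 0.0652 ± 0.0277 in proline samples and 0.102 ± 0.0146 in water samples. This fall passed in only 2 of the 12 analyses that left out a sample, those without proline replicate 3 and without water replicate 5, with adjusted p between 0.00202 and 0.0866 over all 12. With successive pairs averaged its log2 change was the same, -0.54, and its adjusted p was 0.139. The fall was larger in the values as deposited (log2 -0.73, limma, adjusted p = 0.0189) and after median scaling (log2 -0.92, adjusted p = 0.00509). AT1G49380, also of that list, was listed at 0 on 11 of 12 arrays, and AT3G29185, listed under ATP synthase assembly, at 0 on all 12. No other PsbP or PsbQ relative had a single-gene feature, so AT1G76450 cannot be set beside its family here.

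The genes with the most similar profiles were found by the root mean square difference over the 12 samples of normalized log2 values, each gene centred on its own mean, among 534 other single-gene features without a missing value. Treatment and replicate number both enter this measure, and it gives no test. The nearest to LPA19 were AT2G21720, at 0.20, and AT3G08000, at 0.25, where the median of all candidates was 0.65. Both had log2 changes below 0, of -1.12 and -0.83.

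The nearest to AT1G76450 were AT3G06200 at 0.33 and AT4G18180 at 0.50, against a median of 1.95. AT3G06200 averaged 10.2 ± 1.03 in proline samples and 0.887 ± 0.0878 in water samples. The ratios of its successive pairs were 10.7, 11.1 and 12.7, so it lacked the low ratio that AT1G76450 had in replicates 5 and 6. Those of AT4G18180 were 25.8, 28.7 and 22.1, with the highest and the lowest in the same pairs as AT1G76450, which had 16.1, 22.6 and 11.6.

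The nearest to PSB27 were AT2G36920 at 0.56 and AT3G03890 at 0.58, against a median of 1.21. AT3G03890 had ratios of 0.681, 1.86 and 1.74 in replicates 1 and 2, 3 and 4, and 5 and 6, below 1 in the same pair as PSB27. AT2G36920 had 0.519, 1.25 and 0.945. For CCB3 no profile was near, with AT4G33500 and ATAB2 the closest at 1.38 each, against a median of 1.88.

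**Figure D4:**
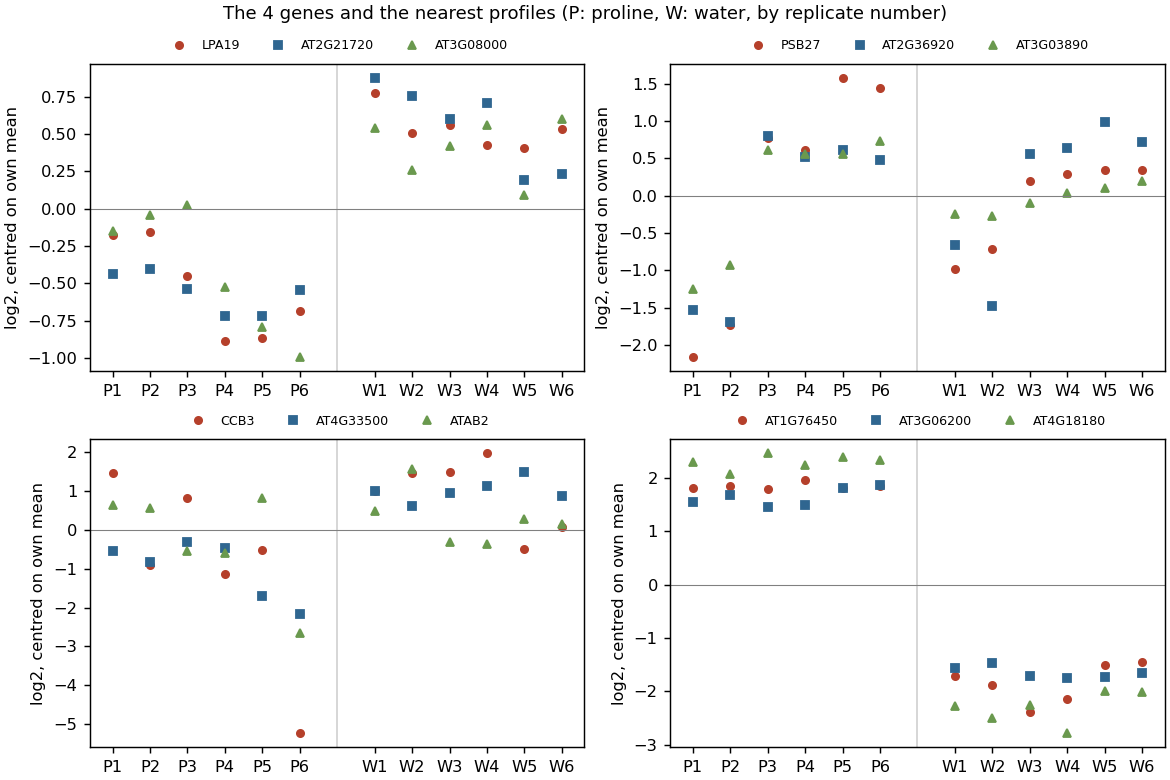
Normalized log2 intensity of each of the 4 genes and its nearest profiles, centred on the mean of 12 samples, in proline samples (P1 to P6, left) and water samples (W1 to W6, right). The PSB27 panel shows replicates 1 and 2 low in both groups for all 3 genes, though only slightly so for AT3G03890 in water. The AT1G76450 panel shows all 3 genes split by treatment. The profiles were chosen for likeness over these same samples, so shared patterns follow from that choice.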

How the data were processed

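The authors deposited 1 table of relative intensity, on a linear scale that holds exact zeros and ends at 100, judged from the file's values. The sources used here do not state background subtraction or scaling. Samples were grouped by title. Whether replicates came from separate plants is not given, so p-values may measure technical spread alone. After log2, with zeros taken as missing, arrays were quantile normalized, since column medians ranged over 0.35. The arrays differed by treatment before this step. Median log2 intensity was -2.085 to -1.94 on proline arrays and -2.29 to -2.14 on water arrays. The interquartile range was 2.40 to 2.54 on proline arrays and 1.95 to 2.09 on water arrays. Quantile normalization thus also removed a difference in distribution between the groups. Features with at least 4 of 6 values in each group were tested, 2861 of 3439, by limma 3.58.1 in R 4.3.3 (lmFit, eBayes, no block), two-sided, at a Benjamini-Hochberg adjusted p below 0.05. The procedure was tested on simulated data in which all samples were drawn independently. That test therefore cannot cover the likeness between successive or same-numbered samples. An unadjusted p under 0.05 was found for 1471 features. The number of arrays limits the precision.

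Genes were named through the platform annotation, which is old, and 690 of 692 single-gene features matched the TAIR10.1 gene table. Genes named by locus have no symbol there. The 4 genes and the lists were chosen with earlier results of these data known. Besides the 4, the text names each tested list gene and, for each of the 4, the 2 nearest profiles. Same-numbered samples deviated from their group means together (correlations of 0.403, 0.370, 0.255, 0.257, 0.283 and 0.184 over 2674 features), so the numbers pair the samples. This comes from the data, since the labels give no meaning to the numbers. Alternatives covered scaling, filters, zeros, a replicate block, averaged pairs and left-out samples. Leaving out successive pairs and a ratio of mean intensities were added after seeing the data.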

Additional observations from a re-analysis of the deposited data

Results flagged for a closer look

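Of 16 groups of 6 values, from the 4 genes and the 4 tested list genes, 1 had a lowest or highest sample whose gap to the others exceeded Dixon's limit, where chance flags about 1 in 20 groups. AT3G61870 had a normalized log2 intensity of -3.06 in proline replicate 3, with the other 5 proline samples between -4.27 and -3.85.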

How the results depend on the processing

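The number of features that changed, 1263, was 686 with successive pairs of replicates averaged, and 2 of the 4 list genes, AT1G22700 and SECE1, then passed in place of 4. With a replicate block 1360 features changed, and no list gene changed its call. Leaving out each sample gave 1185 to 1220 features and 3 to 4 list genes. For PSB27 the log2 change of 0.17 was -0.13 without proline replicate 5, -0.10 without proline replicate 6, -0.01 without water replicate 1 and -0.33 without replicates 5 and 6, and its range over left-out samples was -0.13 to 0.62. That range was -2.30 to -0.96 for CCB3, -1.15 to -1.002 for LPA19 and 3.58 to 3.77 for AT1G76450. The 4 genes kept their directions under each other scaling, each filter and with zeros filled in. AT3G61870 passed as deposited (log2 -0.73, adjusted p = 0.0189), after median scaling (-0.92, 0.00509) and without replicates 3 and 4 (-0.78, 0.0106). It did not pass after cyclic loess (-0.45, 0.103), with zeros set to the lowest value (-0.48, 0.0772), without replicates 1 and 2 (-0.28, 0.379) or without replicates 5 and 6 (-0.56, 0.111). The sources used here give no signal over background, and the noise in dim features such as CCB3 was not measured.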

Other observations

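Changes of opposite direction between successive pairs, as in PSB27, were counted. A feature was counted with a mean log2 change of -0.5 or less in one successive pair and of 0.5 or more in another. The limit of 0.5 was set after the values of PSB27, with pair changes from -1.10 to 1.17, were seen. It was met by 72 of 2674 features (2.69%), 20 of them with a single gene name. Levels that differ by replicate number within a group were not counted. The alternation of CCB3 was counted with a limit of 1, also set after seeing the values. Proline replicates 2, 4 and 6 were each lower than their pair partner by at least that log2 difference in 2 features, CCB3 included, and each higher in none. In water samples the same counts were 2 and 2.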
